A study of Homo sapiens with 6 samples.

Results

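The genes described here are 10 regulators and markers of the epithelial-mesenchymal transition (EMT), taken by name from the 26255 gene symbols of an FPKM table. FPKM is a count of sequenced fragments scaled to transcript length and library size. They comprise 7 transcription factors that drive EMT (SNAI1, SNAI2, SNAI3, ZEB1, ZEB2, TWIST1 and TWIST2), vimentin (VIM), and 2 transcription factors that maintain the epithelial state (GRHL2 and OVOL2). The question was whether the lower SNAI1 level in GPR81 knockdown cells was shared by the other EMT regulators. RNA came from MDA-MB-231, a human breast cancer line, infected with lentivirus and kept in puromycin. The 3 libraries labelled shNT carried a control shRNA, and the 3 labelled shGPR81 carried an shRNA against GPR81, the lactate receptor encoded by HCAR1. The sources used here do not say which of the study's hairpins the sequenced cells carried, nor whether libraries of 1 group came from separate cultures. The p-values therefore measure the spread between these libraries, which may be technical.

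During EMT, epithelial cells lose their junctions and apical polarity and gain a motile, mesenchymal form. Snail (SNAI1), Slug (SNAI2) and the ZEB factors bind E-box motifs and repress epithelial genes such as CDH1, which encodes E-cadherin, while TWIST proteins act through similar motifs. GRHL2 and OVOL2 oppose this program, in part by repressing ZEB1. ZEB1 and ZEB2 also repress, and are repressed by, the miR-200 microRNAs, and SNAI1 is a known target of miR-34a. MDA-MB-231 is known as a mesenchymal-like, basal line with high vimentin.

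The microRNAs of these circuits are shown first because matches to the miR-200 seeds were many in the ZEB genes and were not found in SNAI1. Mature sequences are from RefSeq, with the seed (bases 2 to 8) in capitals. The first 3 share 1 seed, the next 2 share another that differs from it by 1 base, and miR-34a has its own.
hsa-miR-200b-3p: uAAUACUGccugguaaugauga
hsa-miR-200c-3p: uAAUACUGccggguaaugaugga
hsa-miR-429: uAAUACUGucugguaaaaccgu
hsa-miR-200a-3p: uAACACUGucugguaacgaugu
hsa-miR-141-3p: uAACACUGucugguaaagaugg
hsa-miR-34a-5p: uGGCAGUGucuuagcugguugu

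The complement of the first seed is CAGTATT and that of the second is CAGTGTT. The annotated 3′ UTR of ZEB1 (2549 bases) held 6 copies of CAGTATT and 3 of CAGTGTT, and that of ZEB2 (5370 bases) held 5 and 4. Only 8 of 19029 annotated human 3′ UTRs (0.042%) held 9 or more of these 7-base matches in all. The 3′ UTRs of SNAI1 (830 bases), SNAI3 (760), TWIST1 (706), VIM (322) and OVOL2 (473) held neither, and those of SNAI2, TWIST2 and GRHL2 held 1 match each. For the miR-34a seed, SNAI1, SNAI3, ZEB1, TWIST2 and OVOL2 held 1 match (CACTGCC) each, and 16.9% of all 3′ UTRs held at least 1. The windows below are on GRCh37 in 3′ UTRs, given 5′ to 3′ on the gene's strand with the match in capitals, and show both kinds of match in the ZEB genes beside the SNAI1 match.
ZEB1, chr10:31816547-31816568, plus strand: ttgttttatcttatCAGTATTa
ZEB1, chr10:31816641-31816662, plus strand: tgctaaatccgcttCAGTATTt
ZEB1, chr10:31816960-31816981, plus strand: aaaatcatcagaatCAGTGTTt
ZEB2, chr2:145146619-145146640, minus strand: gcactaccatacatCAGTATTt
ZEB2, chr2:145146277-145146298, minus strand: gtgccatccttgtaCAGTGTTa
SNAI1, chr20:48604665-48604686, plus strand: ccccacatccttctCACTGCCa
These matches are a description of sequence. The libraries were made from polyadenylated RNA and do not measure mature microRNAs. The host symbols MIR200A, MIR200B, MIR200C, MIR141, MIR429 and MIR34A were listed at 0 in all 6 libraries.

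The deposited values imply 12154999 to 13014380 counted reads per library. HCAR1 was at 0.968, 1.02 and 1.36 FPKM in the shNT libraries and at 0.978, 0.891 and 0.396 FPKM in the shGPR81 libraries, so the groups overlapped (log2 fold change -0.57, SE 0.31, limma adjusted p = 0.380). The study reported reduced GPR81 in both of its hairpin lines by RT-qPCR and western blotting. The groups are named by their labels throughout. Of the 10 members, 6 had a value above 0 and 5 passed a filter that asked for 0.1 FPKM in 3 libraries or more. A gene was called changed at a Benjamini-Hochberg adjusted p below 0.05 and a fold above 1.5 in a limma fit on log2(FPKM + 0.1) over all 14349 genes that passed. On this scale the change of low genes is understated. None of the 5 tested members was called, against 1.59% of all tested genes called lower and 0.955% called higher. At an unadjusted p below 0.05 there was 1 member, SNAI1, against 19.5% of all tested genes.

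By level, the members ranked in the same order in both groups: VIM, ZEB1, SNAI2, SNAI1, ZEB2 and SNAI3. In shNT cells the mean VIM level was 204 times that of ZEB1, ZEB1 was 2.12 times SNAI2, SNAI2 was 1.80 times SNAI1, and SNAI1 was 2.50 times ZEB2. No neighbours in this order overlapped between libraries of the same group. In shGPR81 cells SNAI1 stood closer to ZEB2, at 1.37 times its level, and further below SNAI2, which was 3.19 times SNAI1.

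**Figure D1:**
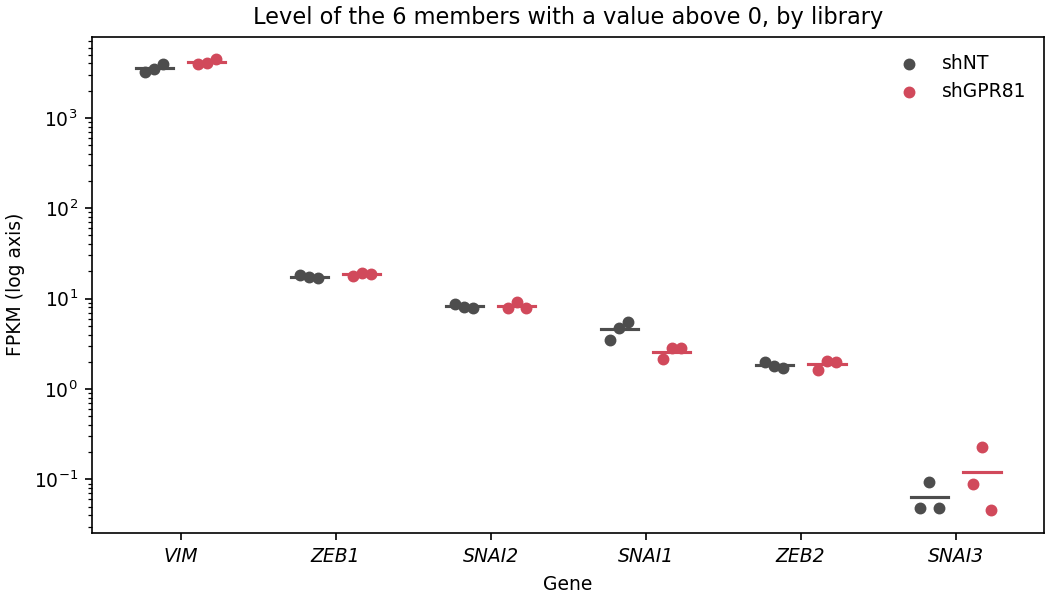
FPKM on a log axis for the 6 members with a value above 0, with 3 shNT libraries (grey) and 3 shGPR81 libraries (red) per gene. Points are libraries and bars are group means. SNAI1 has means of 4.57 and 2.60 FPKM, while ZEB1, SNAI2 and ZEB2 sit at nearly the same height in both groups.

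SNAI1 encodes Snail, a zinc-finger repressor that initiates EMT. The gene (ENSG00000124216) lies at chr20:48599517-48605423 on the plus strand of GRCh37. SNAI1 was at 3.48, 4.72 and 5.51 FPKM in the shNT libraries and at 2.12, 2.84 and 2.84 FPKM in the shGPR81 libraries. Every shGPR81 library was below every shNT library, as was the case for 12.7% of all tested genes. The means were 4.57 ± 1.02 and 2.60 ± 0.411 FPKM (SD, n = 3 each), a log2 fold change of -0.78 (SE 0.19, 95% interval -1.22 to -0.34). This is 0.583 of the shNT level (95% interval 0.429 to 0.792). The limma unadjusted p was 0.0039 and the adjusted p was 0.0646, which misses the threshold of 0.05. With 3 libraries against 3 an exact two-sided permutation test cannot go below 0.1, and SNAI1 gave 0.1. The study had singled out SNAI1 in these same libraries, so its direction here is not independent evidence. Of all tested genes, 379 had a lower log2 fold change than SNAI1.

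The size of the SNAI1 difference rested on few reads. Its FPKM values were whole multiples of the value of 1 read, which gave 72, 100 and 114 reads in the shNT libraries and 47, 62 and 62 in the shGPR81 libraries. The depth-corrected ratio of the summed reads (286 and 171) was 0.568, with an exact 95% binomial interval of 0.467 to 0.689 that covers counting error only. The shNT libraries also varied more than counting alone gives. The variance of their depth-corrected reads was 4.72 times the mean, against 1.35 in the shGPR81 libraries. Among 2432 genes with a mean of 40 to 400 recovered reads the medians were 1.66 and 1.12, and 18.3% of them had a higher shNT ratio than SNAI1. Without shNT replicate 1, the lowest shNT library, the log2 fold change was -0.96 (adjusted p = 0.0157), which counts as a call.

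SNAI2 encodes Slug, the closest relative of Snail among the repressors, and lies at chr8:49830157-49834299 on the minus strand. It was at 8.69, 8.07 and 7.92 FPKM in the shNT libraries and at 7.80, 9.19 and 7.89 FPKM in the shGPR81 libraries. The groups overlapped fully, and the log2 fold change was 0.01 (SE 0.09, 95% interval -0.20 to 0.21, adjusted p = 0.973). The interval holds no decrease as large as that estimated for SNAI1. Its 653 shNT and 693 shGPR81 reads gave a depth-corrected ratio of 1.01 (exact 95% interval 0.904 to 1.12, counting error only).

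ZEB1 encodes a zinc-finger and homeodomain repressor of E-cadherin and of the miR-200 genes, and lies at chr10:31607424-31818742 on the plus strand. It was at 18.3, 17.2 and 16.8 FPKM in the shNT libraries and at 17.99, 19.03 and 18.90 FPKM in the shGPR81 libraries. The first library of each group overlapped the other group. The log2 fold change was 0.10 (SE 0.06, 95% interval -0.04 to 0.23, adjusted p = 0.446), the narrowest interval of the 5 tested members.

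ZEB2, the second ZEB repressor, lies at chr2:145121931-145278624 on the minus strand. It was at 1.98, 1.80 and 1.69 FPKM in the shNT libraries and at 1.64, 2.07 and 1.97 FPKM in the shGPR81 libraries. The lowest value of all 6 was in an shGPR81 library and so was the highest. The log2 fold change was 0.04 (SE 0.13, 95% interval -0.27 to 0.36, adjusted p = 0.902). Reads could not be recovered as whole numbers for ZEB1, ZEB2 or VIM.

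SNAI3, the least studied Snail family member, lies at chr16:88744096-88752915 on the minus strand and overlaps its antisense gene SNAI3-AS1. It was at 0.0482, 0.0940 and 0.0481 FPKM in the shNT libraries and at 0.0899, 0.228 and 0.0455 FPKM in the shGPR81 libraries. These values stand for 1, 2 and 1 reads and for 2, 5 and 1 reads. SNAI3 did not pass the filter. The depth-corrected read ratio of 1.90 had an exact 95% interval of 0.509 to 8.62, which covers counting error only. No difference was detectable at this depth.

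TWIST1 (chr7:19060614-19157259, minus strand) and TWIST2 (chr2:239756673-239832230, plus strand), basic helix-loop-helix factors of mesoderm and EMT, were listed at 0 in all 6 libraries. GRHL2 (chr8:102504667-102681954, plus strand) and OVOL2 (chr20:17937623-18039832, minus strand), the epithelial factors, were listed at 0 as well, as was CDH1. Of all symbols, 32.2% were at 0 in every library. H3F3A, a histone gene that every cell uses, was at 0 in 5 libraries and at 0.0056 FPKM in the other one. An entry of 0 can thus be a failed estimate, and no fold or detection limit is given for these 4 members.

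VIM encodes the intermediate filament protein of mesenchymal cells and is the classical marker of completed EMT. It lies at chr10:17270240-17279592 on the plus strand and overlaps the antisense gene VIM-AS1, and whether the counting used strand is not given in the sources used here. VIM was at 3211, 3506 and 3937 FPKM in the shNT libraries and at 3960, 4001 and 4443 FPKM in the shGPR81 libraries. Every shGPR81 library was above every shNT library, as for 12.9% of all tested genes, though the nearest libraries, at 3937 and 3960 FPKM, were almost level. The means were 3552 ± 365 and 4135 ± 268 FPKM (SD, n = 3 each), and the log2 fold change was 0.22 (SE 0.10, 95% interval -0.00 to 0.45, adjusted p = 0.267), which did not pass the test. After quantile normalization it was 0.09.

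Whether the SNAI1 difference was shared was examined on the log2 SNAI1 level minus the log2 level of each other tested member in the same library. For SNAI2 this was -1.29, -0.76 and -0.52 in the shNT libraries and -1.83, -1.66 and -1.45 in the shGPR81 libraries, so that the groups did not overlap. For VIM it was -9.81, -9.51 and -9.46 against -10.80, -10.41 and -10.56. The difference between groups was -0.79 (SE 0.26) relative to SNAI2, -0.88 (SE 0.25) relative to ZEB1, -0.82 (SE 0.26) relative to ZEB2 and -1.002 (SE 0.157) relative to VIM. The groups did not overlap in any of the 4 comparisons. With chromosomes centred, these differences were -0.37, -0.47, -0.40 and -0.60, with exact permutation p from 0.1 to 0.3. Without centring, each exact two-sided permutation p was 0.1, the smallest this design allows, and stayed 0.1 after adjustment over the 4 comparisons. These comparisons share the SNAI1 values and are not independent of each other. The study had singled out SNAI1 in these same libraries, so the sign of these differences is not independent evidence either. SNAI2, ZEB1 and ZEB2 had log2 fold changes of 0.01, 0.10 and 0.04, so their comparisons largely repeat the SNAI1 difference.

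**Figure D2:**
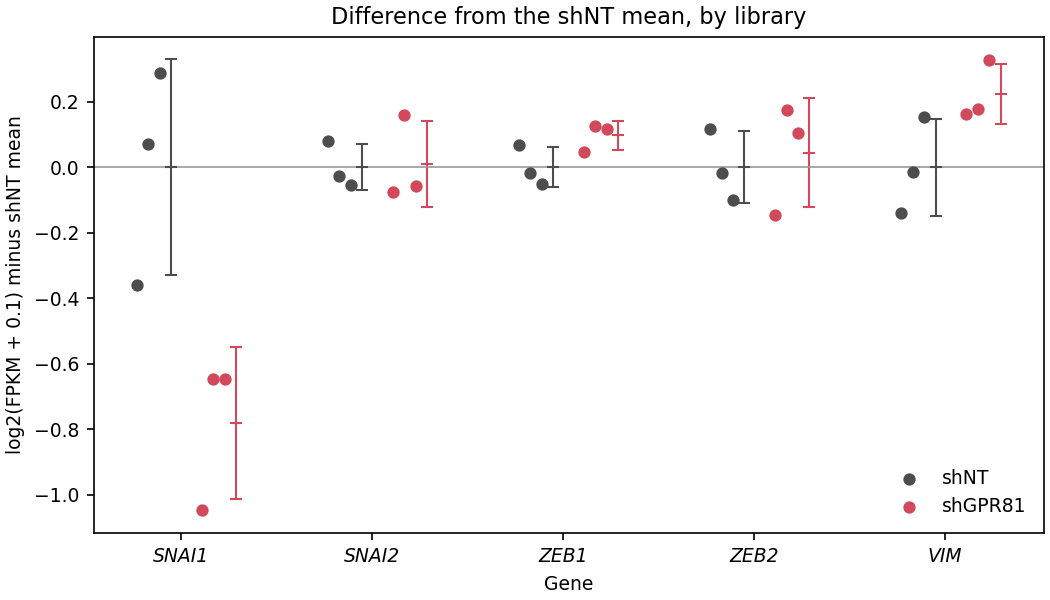
log2(FPKM + 0.1) minus the shNT mean for the 5 tested members in 3 shNT (grey) and 3 shGPR81 (red) libraries, with the group mean and SD beside the points. SNAI1 lies between -1.05 and -0.65 in the shGPR81 libraries, whereas SNAI2, ZEB1 and ZEB2 stay near 0 and VIM lies between 0.16 and 0.33.

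SNAI1 is on chromosome 20, where lower values were general, and the other 4 tested members are on chromosomes 8, 10 and 2. Tested genes other than SNAI1 with a single annotated locus numbered 387 on chromosome 20. Of these, 352 had a log2 fold change below 0, and the median of the 387 was -0.39, against 0.01 for other chromosomes. The 10 nearest tested genes on each side of SNAI1 lay between -1007 and 653 kb from it. They had a median of -0.36, 19 of the 20 were below 0, and none was as low as SNAI1. RNF114, a ubiquitin ligase gene next to it on one side, had -0.39 (adjusted p = 0.0078). UBE2V1, a ubiquitin-conjugating enzyme variant on the other side, had -0.34 (adjusted p = 0.0114). Both passed the adjusted p but not the fold limit. FAM65C was the only one of the 20 that was called (log2 fold change -0.59, adjusted p = 0.0275).

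Set against its chromosome, SNAI1 kept a smaller difference that was within the spread of the libraries. The chromosome median was taken over genes with a mean of 5 FPKM or more. SNAI1 minus the median deviation of these chromosome 20 genes was -0.30, 0.06 and 0.25 in the shNT libraries and -0.64, -0.24 and -0.25 in the shGPR81 libraries. The first shNT library was below 2 of the shGPR81 libraries, so the groups overlapped (difference -0.38, SE 0.21, exact two-sided permutation p = 0.3). Each chromosome with at least 20 genes at that level was also centred on its own such median in each library. The limma log2 fold change of SNAI1 was then -0.37 (adjusted p = 0.310). Of the 387 other chromosome 20 genes counted above, 27 had a lower log2 fold change than SNAI1.

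**Figure D3:**
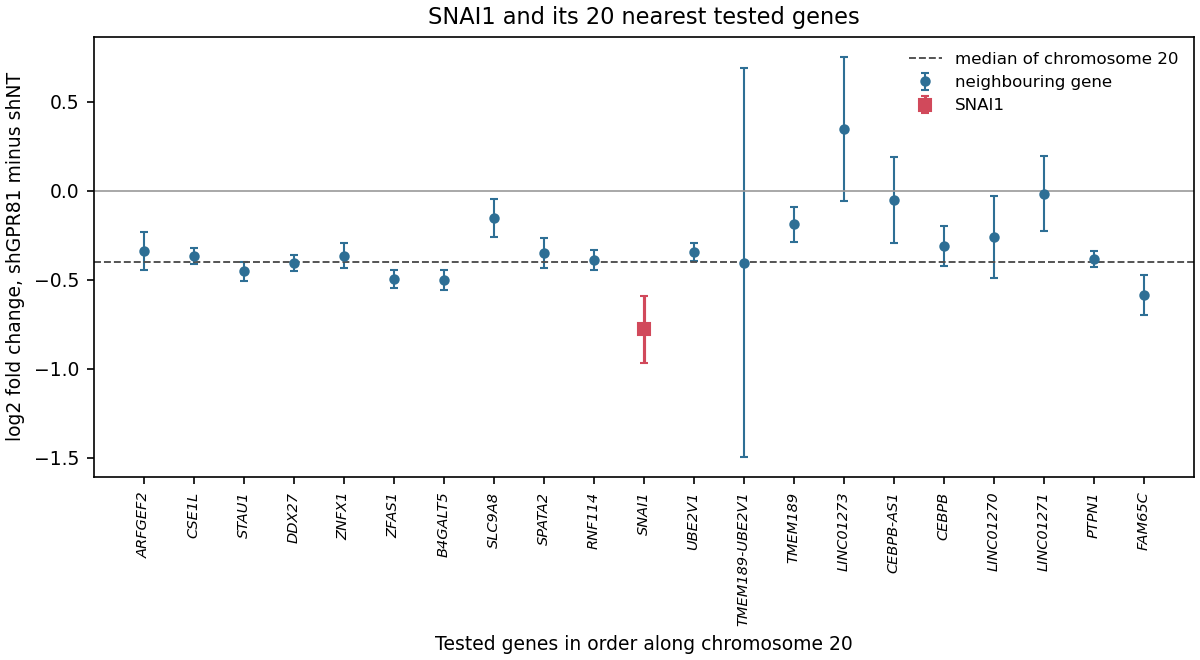
log2 fold change (shGPR81 minus shNT) with its SE from limma for SNAI1 (red square) and the 10 nearest tested genes on each side (blue), in their order along chromosome 20. The dashed line is the median of chromosome 20 genes with a mean of 5 FPKM or more (-0.40). SNAI1, at -0.78, lies below all 20 neighbours.

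OVOL2 also lies on chromosome 20 but had no value above 0, so only its surroundings can be described. The 10 nearest tested genes on each side ran from NDUFAF5 at -4205 kb to RIN2 at 1872 kb. Their median was -0.50, and 19 of the 20 were below 0, as were 352 of the 387 chromosome 20 genes counted above. Called lower were 5 of the 20, against 49 of those 387 and 1.59% of all tested genes. The 5 were NDUFAF5 (log2 fold change -0.90), an assembly factor of mitochondrial complex I, KIF16B (-1.47), an endosomal kinesin, DSTN (-0.59), an actin-depolymerizing factor, PET117 (-0.62), an assembly factor of cytochrome oxidase, and LINC00493 (-0.64). MGME1, a mitochondrial nuclease gene next to OVOL2 by gene midpoint, had -0.45 (adjusted p = 0.0238). Its locus lies within the annotated OVOL2 interval. With chromosomes centred, none of these 5 nor FAM65C was called. KIF16B then had -1.06 and NDUFAF5 -0.48, while the other 3 lay between -0.23 and -0.18 and FAM65C had -0.17. KIF16B, at a mean of 0.204 FPKM in shNT cells, lost its call in 10 of 14 alternative settings and FAM65C in 7 of 15.

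The genes whose profile was most like that of SNAI1 were found among 11676 tested genes averaging 1 FPKM or above. Likeness was the root mean square difference of log2 profiles over the 6 libraries, each centred on its shNT mean. The 5 nearest were TGM2 (0.119), which encodes tissue transglutaminase, AP5S1 (0.125), an adaptor complex subunit, STARD10 (0.135), a lipid transfer protein, ITGB4 (0.140), the integrin subunit of hemidesmosomes, and MYL9 (0.144), a myosin light chain of smooth muscle type. TGM2, AP5S1 and MYL9 lie on chromosome 20, STARD10 on 11 and ITGB4 on 17. TGM2 was at 58.8, 71.8 and 75.9 FPKM in the shNT libraries and at 38.1, 41.7 and 43.4 FPKM in the shGPR81 libraries, with the first library lowest in each group, as for SNAI1. All 5 were called lower, with log2 fold changes from -0.91 (STARD10) to -0.72 (AP5S1). Their likeness to a lowered profile fixes that direction. TGM2, AP5S1 and MYL9 were no longer called with chromosomes centred.

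The wider EMT program was followed in 6 lists of genes, and the median log2 fold change of all tested genes was 0.01. Among 24 other EMT transcription regulators, 16 were tested, none was called lower and 1 was called higher, with a median of 0.11. The 1 call was 6.25% of the 16, against 0.955% of all tested genes called higher. An unadjusted p below 0.05 was reached by 4 of the 16 (25%), against 19.5% of all tested genes. PRRX1, a homeobox factor of mesenchymal cells, rose from 0.139 ± 0.0491 to 0.411 ± 0.0208 FPKM (SD, n = 3 each; log2 fold change 1.12, adjusted p = 0.0487). At this low level the call was lost in 11 of 14 alternative settings. Of the 3 most abundant, FOSL1, an AP-1 subunit, had 0.36 (adjusted p = 0.0436, below the fold limit). YBX1, a cold-shock domain factor that aids Snail translation, had -0.01 (adjusted p = 0.977) and ETS1 had 0.06 (adjusted p = 0.681).

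Regulators of Snail and E2A proteins, which include the ID inhibitors and the kinases and ubiquitin ligases that set Snail stability, were not called in either direction among 17 tested (median -0.01). Their most abundant members were CSNK1A1 (log2 fold change -0.09), CSNK1E (0.05) and CTDSP1 (0.22), which encode casein kinases and a small phosphatase. The corepressors through which Snail and ZEB proteins silence chromatin were likewise not called among 17 tested (median -0.03). HDAC1, a histone deacetylase, had -0.00, DNMT1, the maintenance DNA methyltransferase, had 0.03, and LOXL2, a lysyl oxidase, had -0.06. At an unadjusted p below 0.05 there were 3 of 17 genes in the first of these lists (17.6%) and 1 of 17 in the second (5.88%), against 19.5% of all tested genes.

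Epithelial genes that EMT factors repress numbered 56, of which 11 were listed at 0 and 37 were tested. SPINT1 was the 1 called gene (2.7%, against 1.59% of all tested genes called lower), and no epithelial gene was called higher. SPINT1 encodes an inhibitor of membrane serine proteases of epithelia, and it fell from 4.51 ± 0.755 to 2.41 ± 0.377 FPKM (log2 fold change -0.88, adjusted p = 0.0255). The list median was -0.06, and 14 of 37 (37.8%) had an unadjusted p below 0.05, against 19.5% of all tested genes. The keratins KRT8 and KRT18 had -0.25 and -0.19 (adjusted p = 0.246 and 0.353), and SPINT2, a relative of SPINT1, had 0.29 (adjusted p = 0.0594). Another 3 genes passed the adjusted p but not the fold limit, and are named after their values were seen. KRT19, a further keratin, had means of 78.1 and 112 FPKM (0.53, adjusted p = 0.0450), F11R, a tight junction adhesion molecule, had 0.44 (adjusted p = 0.0177), and LSR, a protein of tricellular junctions, had -0.57 (adjusted p = 0.0495).

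Mesenchymal genes held the most calls, in both directions. Of 66, 50 were tested, 4 were called lower (8%, against 1.59% of all tested genes) and 3 higher (6%, against 0.955%), and the median was 0.04. An unadjusted p below 0.05 was reached by 30 of the 50 (60%, against 19.5%). In 16 genes every shGPR81 library was below every shNT library and in 17 every one was above (32% and 34%, against 12.7% and 12.9% of all tested genes). The list was chosen with earlier results of these data known, so these shares describe it and are not a test of enrichment. CDH11, a mesenchymal cadherin, fell from 1.44, 1.57 and 1.51 FPKM to 0.0822, 0.1145 and 0.0936 FPKM (log2 fold change -3.03, adjusted p = 0.00048). MYL9 (-0.74), FBLN5 (-0.82), an elastic fibre protein, and PDGFRB (-0.69), a growth factor receptor of mesenchymal cells, were the other genes called lower. The calls of FBLN5 and PDGFRB were lost in 12 of 14 and 11 of 15 alternative settings. MYL9 lies on chromosome 20 and was not called with chromosomes centred (-0.33, adjusted p = 0.0929). In that setting 1 gene of the list was called lower and 3 higher, against 172 and 122 of all 14349 tested genes. PDGFRB had been named by the study as decreased in these same libraries, so its direction is not independent evidence. ACTA2, smooth muscle actin, rose from 2.37, 1.84 and 1.64 FPKM to 5.05, 3.97 and 3.73 FPKM (log2 fold change 1.09, adjusted p = 0.0124). COL6A3, a collagen VI chain, rose by 0.73 and MMP14, a membrane metalloprotease, rose by 0.59 on the log2 scale. The most abundant members were ITGB1, CYR61 and MSN, with 0.01, -0.20 and 0.30, of which MSN passed the adjusted p (0.0378) but not the fold limit. In all, 9 genes of this list did so.

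Ligands, receptors and SMADs of TGF-beta signaling, the best known inducer of SNAI1, gave 1 call, lower, among 19 tested (5.26%, against 1.59% of all tested genes). The list median was -0.07, and 5 of 19 (26.3%) had an unadjusted p below 0.05, against 19.5% of all tested genes. TGFB2, a ligand, fell from 11.7, 10.7 and 10.9 FPKM to 5.86, 7.01 and 6.79 FPKM (log2 fold change -0.76, adjusted p = 0.0039). The study had named TGFB2 as decreased in these same libraries, so its direction is not independent evidence. The ligand TGFB1 was at 47.7, 65.9 and 72.4 FPKM and at 63.1, 66.3 and 74.9 FPKM, which overlapped (0.15, adjusted p = 0.658). TGFBR2 and LTBP1, a receptor and a latency protein, had -0.07 and -0.06. Another 2 genes of the list passed the adjusted p but not the fold limit, and are named after their values were seen. TGFBR3, a further receptor, had -0.45 (adjusted p = 0.0427), and TGIF1 had 0.33 (adjusted p = 0.0351). In 5 of the 19 every shGPR81 library was below every shNT library (26.3%, against 12.7% of all tested genes). In 1 every one was above (5.26%, against 12.9%).

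**Figure D4:**
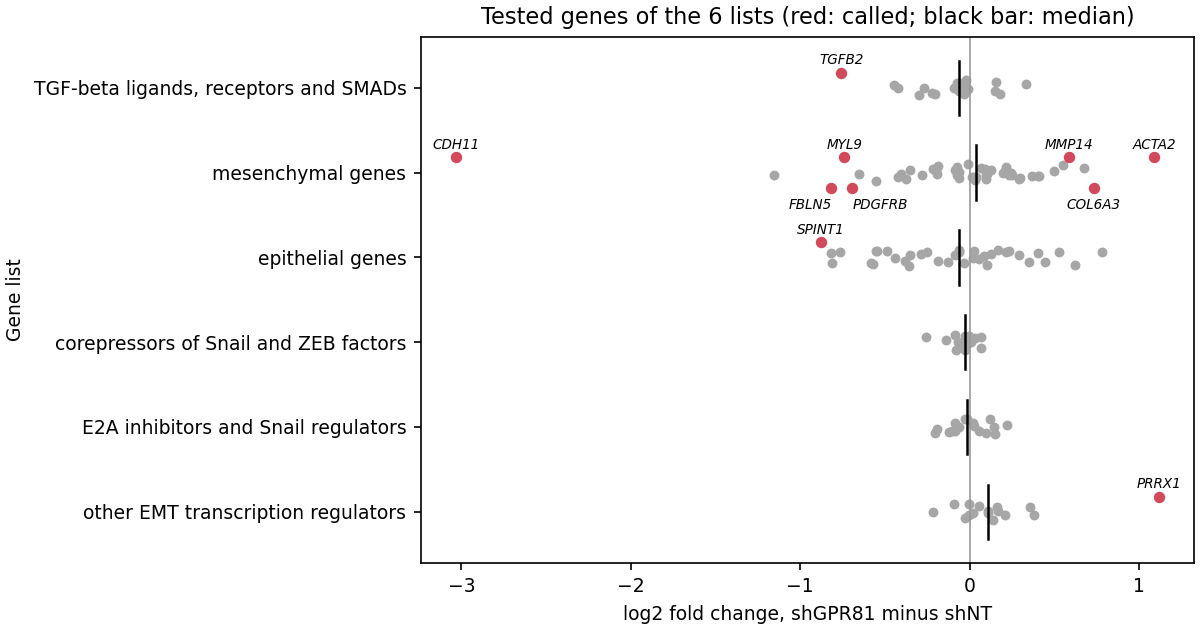
log2 fold change (shGPR81 minus shNT) of every tested gene in the 6 lists, with called genes in red and named, other genes in grey, and the list median as a black bar. List medians lie between -0.07 and 0.11, and called genes stand on both sides of 0 among mesenchymal genes.

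The cell line label was checked against markers. Of 9 luminal markers, ESR1 and PGR were listed at 0 and 1 of 7 tested was called lower (14.3%, against 1.59% of all tested genes). TFF1, a secreted estrogen-regulated peptide, fell from 7.35 ± 1.23 to 0.401 ± 0.141 FPKM. The summed luminal level was 384 to 486 FPKM in shNT and 359 to 414 FPKM in shGPR81 libraries, mostly KRT8 and KRT18. Basal line markers summed to 3994 to 4788 and 4785 to 5336 FPKM, mostly VIM itself, with KRT5 listed at 0. Fibroblast markers summed to at most 1.19 FPKM and 4 of 6 were at 0, among them COL1A2 and DCN. Of leukocyte markers CD3E was at 0 and the sum, 79.3 to 103 against 112 to 131 FPKM, was nearly all CD68, whose part in the results was not tested. Endothelial markers summed to at most 1.23 FPKM.

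In promoter windows of 300 bases from RefSeq (GRCh38.p14), the E-box CAGGTG bound by Snail and ZEB proteins, searched on both strands, was in 2 of 7 ZEB1 windows and in none of the single windows of ZEB2, TWIST2 and VIM. It was in 20.6% of all 35116 windows. SNAI1, SNAI2, SNAI3, TWIST1, GRHL2, OVOL2 and CDH1 had no entry.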

How the data were processed

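Per the labels and the study's methods, poly(A) RNA libraries (TruSeq stranded, 75-base single-end) were mapped with TopHat2 2.0.13, Bowtie2 2.2.3 and SAMtools 0.1.19, and the authors normalized with Cuffnorm 2.2.1. The deposited values are FPKM for 3 shNT and 3 shGPR81 libraries. The labels name mm10 and the methods hg19. The symbols are human, and coordinates here are from GENCODE on GRCh37. The study tested read counts. FPKM are not counts, so limma 3.58.1 (R 4.3.3, eBayes with a trend) was fitted to log2(FPKM + 0.1) for the 14349 genes reaching 0.1 FPKM in 3 libraries, and p-values were adjusted by Benjamini-Hochberg over them. The fit was checked on simulated data with changes larger than that of any tested member, so smaller changes were not checked. Whole reads were recovered for 36.8% of 15931 genes (tolerance 0.0001 relative), too few for a count test. MIR6723 alone took 28.1% to 36.2% of the summed FPKM of a library.

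Members and lists were chosen with earlier results of these data known. Text names all members, every called gene and the 3 most abundant of each list, the 5 genes likest SNAI1, and called or adjacent neighbours. Alternatives covered the filter, pseudocount, scaling, GC content, chromosome centring, replicate numbers and each library left out.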

Additional observations from a re-analysis of the deposited data

How the results depend on the processing

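SNAI1 kept its direction in all 15 alternatives, with log2 fold changes from -0.96 to -0.37 and adjusted p from 0.0157 to 0.310, and was called in 3. These were the replicate block (-0.78, adjusted p = 0.0182), the GC correction (-0.79, adjusted p = 0.0161) and the fit without shNT replicate 1 (-0.96), so that members called went from 0 to 1. With each library left out in turn SNAI1 ranged from -0.96 to -0.64 (adjusted p 0.0157 to 0.211) and members called from 0 to 1. Same-numbered libraries correlated at 0.12, 0.02 and 0.01 in their deviations from the group means, so the numbers were not taken as pairing. Chromosome centring of results other than SNAI1, and the alternatives for single list genes, were added after the data had been seen.

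SNAI2 ranged from -0.067 to 0.050 and ZEB2 from -0.020 to 0.14 with each library left out, which included a change of sign for both. ZEB1 lay between 0.07 and 0.13 and VIM between 0.09 and 0.30 over all 15, with no call. The SNAI1 difference from each other member kept its sign in 9 of 9 alternatives: 2 pseudocounts and 6 left-out libraries (-1.11 to -0.62, exact permutation p 0.1 to 0.2), and chromosome centring (-0.60 to -0.37, p 0.1 to 0.3). All genes called lower and higher numbered 228 and 137, and 142 and 75 with a pseudocount of 1. Leaving out a library gave 121 to 256 lower and 65 to 152 higher. These fits have fewer samples.

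Calls of CDH11, TGFB2 and TFF1 held in all 15 alternatives, while FBLN5, PDGFRB and PRRX1 lost theirs in most, as did KIF16B. FAM65C lost its call in 7 and SPINT1 and MMP14 theirs in 6 each, COL6A3, MYL9 and AP5S1 in 4 each, and ACTA2, STARD10 and ITGB4 in 3 each. Leaving out shNT replicate 2 or shGPR81 replicate 1 ended the calls of ACTA2, COL6A3, MYL9, SPINT1, AP5S1, STARD10 and ITGB4, with directions kept. The epithelial median was 0.02 with a filter of 1 FPKM. Depth limits SNAI3, and at most 114 reads stand behind SNAI1 in a library.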
